A study of Homo sapiens with 24 samples.

Results

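The genes described here are NLRP2, AMBN, ITM2A, EPHA3, MAP2K6 and LPCAT2, 6 of the 22109 genes that could be read from the arrays. They were picked on measured values, for a large difference between untreated S51A cells and untreated parental cells: NLRP2 and AMBN were high in S51A, and the other 4 genes were low there. That difference is therefore given below as a description, and the comparisons tested were between arrays outside it. The choice was made with earlier results of these data known, so the tests are not an independent check of it. All 6 genes passed the filter on dim genes through the lines in which they were high, so passing it says nothing about them.

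The study profiled HAP1 cells, a near-haploid human line that goes back to the KBM-7 chronic myelogenous leukemia line, on 24 expression arrays. The 6 lines were all bought from Horizon Discovery. S51A carries alanine in place of the serine of eIF2-alpha that stress kinases phosphorylate. The HRI, GCN2, PKR and PERK lines each lack the eIF2-alpha kinase after which they are named, and PAR is the parental control. Each line was measured after lomustine, an alkylating nitrosourea drug, at 200 µM for 2 h, in an arm titled SA100, and with no drug. The treatment text gives sodium arsenite at 100 µM for 2 h, which SA100 is read as here, although the agent field of those arrays names lomustine. S51A, HRI and PAR had 2 arrays each with lomustine and with no drug and 1 with SA100, and GCN2, PKR and PERK had 1 array in every arm. The labels do not say whether a line is 1 clone or whether repeat arrays are separate cultures, so every p-value measures only the spread between these arrays, and a line difference cannot be told apart from a difference between clones.

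Phosphorylated eIF2-alpha slows translation initiation and favours the making of stress factors such as ATF4, a programme known as the integrated stress response. In cells whose eIF2-alpha cannot be phosphorylated at this serine, that arm of the response is blocked. None of the 6 genes is a textbook component of the programme. NLRP2 is a pyrin-domain NLR protein studied in inflammasome signalling and in oocytes, AMBN encodes the enamel matrix protein ameloblastin, and ITM2A is a type II membrane protein with a BRICHOS domain. EPHA3 is a receptor tyrosine kinase for ephrin-A ligands, MAP2K6 is the kinase MKK6 that activates p38 MAP kinases, and LPCAT2 is a lysophosphatidylcholine acyltransferase that can also make platelet-activating factor.

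The 6 genes lie on 6 different chromosomes, and the windows around their transcription starts are printed to show the CpG content and the letters with which each begins. RefSeq promoter windows, from 250 bases before to 50 after the start on GRCh38.p14, were matched for 5 of the 6 genes: NLRP2 at chr19:54965034-54965333 on the plus strand, AMBN at chr4:70592006-70592305 on the plus strand, ITM2A at chrX:79367285-79367584 on the minus strand, EPHA3 at chr3:89107371-89107670 on the plus strand and MAP2K6 at chr17:69414447-69414746 on the plus strand. LPCAT2 lies on chromosome 16. Each sequence runs 5′ to 3′ on its gene's strand, and capitals mark CpG dinucleotides, the sites of DNA methylation in human promoters.
NLRP2: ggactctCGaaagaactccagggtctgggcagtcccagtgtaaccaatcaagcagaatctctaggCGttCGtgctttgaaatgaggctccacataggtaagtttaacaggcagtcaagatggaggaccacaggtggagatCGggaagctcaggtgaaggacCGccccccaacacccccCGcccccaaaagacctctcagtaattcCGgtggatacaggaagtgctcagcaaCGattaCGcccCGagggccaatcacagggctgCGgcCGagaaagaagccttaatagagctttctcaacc
AMBN: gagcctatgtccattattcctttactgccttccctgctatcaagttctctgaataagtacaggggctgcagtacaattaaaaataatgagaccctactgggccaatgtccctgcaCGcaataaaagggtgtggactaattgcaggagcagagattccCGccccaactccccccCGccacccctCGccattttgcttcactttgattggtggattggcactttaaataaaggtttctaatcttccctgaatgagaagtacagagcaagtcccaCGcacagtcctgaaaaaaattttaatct
ITM2A: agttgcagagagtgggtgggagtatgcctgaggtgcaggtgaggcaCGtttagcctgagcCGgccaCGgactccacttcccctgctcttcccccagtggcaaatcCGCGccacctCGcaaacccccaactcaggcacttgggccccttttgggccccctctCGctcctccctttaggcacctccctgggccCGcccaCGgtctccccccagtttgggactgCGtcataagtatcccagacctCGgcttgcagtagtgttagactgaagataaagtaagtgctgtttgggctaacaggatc
EPHA3: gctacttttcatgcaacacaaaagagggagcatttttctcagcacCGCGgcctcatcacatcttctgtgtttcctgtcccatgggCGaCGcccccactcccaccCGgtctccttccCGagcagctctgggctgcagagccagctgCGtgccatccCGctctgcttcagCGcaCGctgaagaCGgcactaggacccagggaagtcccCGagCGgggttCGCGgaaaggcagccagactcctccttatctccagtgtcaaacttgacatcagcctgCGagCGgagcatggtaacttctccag
MAP2K6: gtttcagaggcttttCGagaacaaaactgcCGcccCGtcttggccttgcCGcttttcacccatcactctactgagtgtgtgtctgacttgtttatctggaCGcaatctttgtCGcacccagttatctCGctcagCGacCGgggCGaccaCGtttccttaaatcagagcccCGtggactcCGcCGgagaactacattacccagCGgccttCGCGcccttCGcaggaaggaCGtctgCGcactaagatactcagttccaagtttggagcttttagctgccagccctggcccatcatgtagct

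The windows held 12 CpG dinucleotides for NLRP2, 5 for AMBN, 11 for ITM2A, 17 for EPHA3 and 20 for MAP2K6. Over 35116 human promoter windows of the same length the median was 14 and the quartiles were 4 and 28, so all 5 counts lay between the quartiles. The letters TATAAA, the core of a TATA box, matched on neither strand of any of the 5 windows and occurred in 11.5% of all windows. The letters TGATGNAA, the core of elements bound by ATF4 with CHOP, also matched in none of the 5 and occurred in 3.62% of all windows. CCAAT, searched on both strands, matched 2 times in NLRP2 and 3 times in AMBN, in none of the other 3 windows, and in 34.6% of all windows. These matches describe letters only, and methylation was not measured.

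Values are RMA log2 intensities, so 1 unit is a doubling, and each gene is represented by its probe set with the highest mean. The median of all values, 2.42 log2 units, serves below as the background line. The targeted transcripts did not mark the lines: EIF2S1, which encodes eIF2-alpha, ran between 5.90 and 6.63 log2 units in S51A and between 6.13 and 6.80 elsewhere, and EIF2AK1, EIF2AK4, EIF2AK2 and EIF2AK3 overlapped between the HRI, GCN2, PKR and PERK lines and the rest, so the arrays do not check the genotypes. The second lomustine array of S51A had 8.37% of probe sets over 1 log2 unit from their median, against 3.16% for the first lomustine array of PAR and 0.74% to 2.90% for the rest, and it correlated best with that PAR array (r 0.963).

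In S51A cells NLRP2 read 6.92 and 6.11 with lomustine, 7.11 with SA100 and 6.79 and 7.21 with no drug, against 2.16 and 2.19, 2.10, and 2.07 and 1.77 in PAR cells in the same order of arms. Every PAR value of NLRP2 was under the background line, and every S51A value was well above it. AMBN read 8.12 and 4.21 with lomustine, 7.43 with SA100 and 7.52 and 8.38 with no drug in S51A cells, against 2.40 and 2.34, 2.55, and 2.88 and 2.09 in PAR cells. The second lomustine array of S51A stood 3.22 log2 units under the next S51A array for AMBN, yet above every array of every other line.

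ITM2A was the mirror image. It read 3.06 and 3.35 with lomustine, 3.01 with SA100 and 3.24 and 2.80 with no drug in S51A cells, against 7.02 and 8.22, 8.37, and 8.35 and 8.05 in PAR cells. All 5 S51A arrays remained above the background line for ITM2A. That line is the median of all values and not a limit of detection, so whether these readings hold transcript was not tested. EPHA3 read 2.46 and 2.30 with lomustine, 2.86 with SA100 and 2.67 and 1.83 with no drug in S51A cells, against 5.50 and 4.99, 5.19, and 5.72 and 5.36 in PAR cells.

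MAP2K6 read 2.39 and 2.21 with lomustine, 2.26 with SA100 and 1.94 and 2.79 with no drug in S51A cells, against 4.25 and 4.63, 4.60, and 5.41 and 5.13 in PAR cells. LPCAT2 read 2.02 and 2.70 with lomustine, 2.60 with SA100 and 2.25 and 2.52 with no drug in S51A cells, against 3.69 and 4.07, 3.77, and 4.49 and 4.84 in PAR cells. For both genes the S51A values scattered around the background line, where 1 of 5 arrays lay at or above it for MAP2K6 and 3 of 5 for LPCAT2. In such bulk RNA, fewer cells with a transcript and less transcript per cell cannot be told apart.

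**Figure D1:**
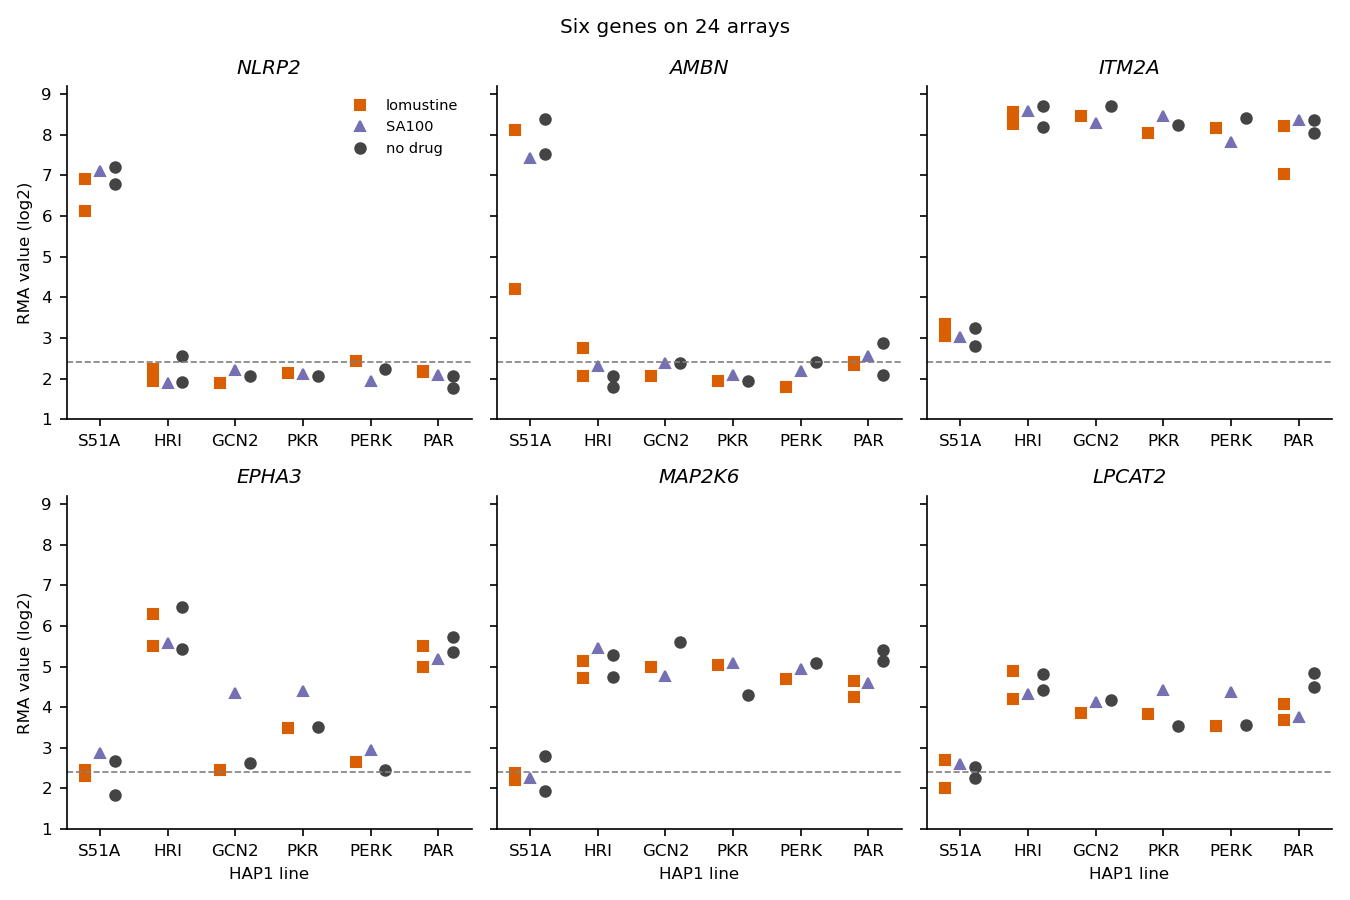
RMA values in log2 units of the 6 genes on each of 24 arrays, by HAP1 line from S51A at the left to PAR at the right, with squares for lomustine, triangles for SA100, circles for no drug and a dashed line at the background of 2.42. S51A stands apart from all 5 other lines for every gene except EPHA3, which overlapped with the PERK and GCN2 lines; the GCN2 line read 4.35 for EPHA3 with SA100.

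In the untreated contrast that chose the genes, the S51A mean minus the PAR mean was 5.46 log2 units for AMBN, 5.08 for NLRP2, -5.18 for ITM2A, -3.29 for EPHA3, -2.90 for MAP2K6 and -2.28 for LPCAT2. AMBN ranked 2nd, ITM2A 3rd and NLRP2 5th by size among the 22109 genes, and LPCAT2 ranked 57th. Among genes higher in S51A, only the zinc finger genes ZNF729 and ZNF257 were at least as far apart as NLRP2, at 5.90 and 5.09, and ZNF208 came next at 4.91. Among genes lower in S51A, 10 others were at least as far apart as LPCAT2, and RPS6KA6 came next at -2.25. In all, 52 genes were higher and 26 lower by at least 2 log2 units. The untreated arrays of S51A and PAR did not overlap for any of the 6 genes, as the choice implies, and did not overlap for 33.1% of the 17339 genes tested.

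The treated arrays show the same line difference on arrays outside the untreated contrast, although the genes were chosen with earlier results of these data known. Across the lomustine and SA100 arrays, 3 for S51A and 3 for PAR, NLRP2 and AMBN rose and ITM2A, EPHA3, MAP2K6 and LPCAT2 fell in S51A, by limma with Benjamini-Hochberg adjustment over all 17339 genes and a threshold of 0.05. This fit, made on the 15 treated arrays of all 6 lines with the arm as a covariate, called 103 genes or 0.594% of those tested, with 73 genes or 0.421% higher and 30 genes or 0.173% lower. The treated arrays did not overlap between S51A and PAR for any of the 6 genes, and for 6.93% of all genes tested. The treated arrays come from the same 2 lines as the untreated ones, so they repeat the line difference on other arrays and not in another line.

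NLRP2 averaged 6.71 ± 0.53 log2 units in treated S51A cells, against 2.15 ± 0.05 in treated PAR cells (SD, n = 3 each), a difference of 4.57 with a standard error of 0.24 and a limma adjusted p of 6.45e-07. With the PAR readings, all under the background line, set to it, the means differed 19.7-fold. The 95% confidence interval of the fitted difference was 4.04 to 5.09 log2 units. AMBN averaged 6.59 ± 2.09 in S51A cells, against 2.43 ± 0.11 in PAR cells (SD, n = 3 each), a difference of 4.16 ± 0.69 (SE) with a limma adjusted p of 0.0127. The spread of AMBN includes the low second lomustine array of S51A, and without that array the difference was 5.34 with a standard error of 0.25. The call of AMBN was lost when other single arrays were left out, with adjusted p up to 0.0912 without the SA100 array of S51A, 0.0543 without that of PAR and 0.0510 without the first lomustine array of PAR.

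ITM2A averaged 3.14 ± 0.18 log2 units in treated S51A cells, against 7.87 ± 0.74 in treated PAR cells (SD, n = 3 each). The difference was -4.73 ± 0.29 (SE), or 26.5-fold lower by the readings, with a limma adjusted p of 2.62e-06. MAP2K6 averaged 2.29 ± 0.09 in S51A cells, against 4.50 ± 0.21 in PAR cells (SD, n = 3 each), with a difference of -2.21 ± 0.19 (SE) and a limma adjusted p of 6.23e-05. MAP2K6 had all 3 treated S51A arrays under the background line, and with these set to the line the means differed 4.22-fold. The 95% confidence interval of the fitted difference was -2.61 to -1.80. EPHA3 averaged 2.54 ± 0.29 in S51A cells, against 5.23 ± 0.25 in PAR cells (SD, n = 3 each). With the 1 reading under the line set to it, the means differed 6.28-fold. The fitted difference was -2.69 ± 0.36 (SE), with a 95% confidence interval of -3.47 to -1.91 and a limma adjusted p of 0.00244.

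LPCAT2 had the smallest difference of the 6. It averaged 2.44 ± 0.37 log2 units in treated S51A cells, against 3.84 ± 0.20 in treated PAR cells (SD, n = 3 each). With readings under the background line set to it, the means differed 2.42-fold. The fitted difference was -1.41 ± 0.26 (SE), with a 95% confidence interval of -1.97 to -0.84 and a limma adjusted p of 0.0291. That call was lost when either lomustine array of PAR, the first lomustine array of S51A or the SA100 array of S51A was left out, with limma adjusted p of 0.105, 0.136, 0.119 and 0.132, while the direction remained. Residual spread in the fit rested on 8 degrees of freedom.

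Within the lomustine arm alone, where 2 arrays of each line leave 3 residual degrees of freedom across the lines, limma called 13 genes, 0.0750% of those tested, and these included NLRP2 and ITM2A. NLRP2 differed by 4.34 log2 units with an adjusted p of 0.0124, and ITM2A by -4.41 with an adjusted p of 0.0245. AMBN differed by 3.80, EPHA3 by -2.86, MAP2K6 by -2.14 and LPCAT2 by -1.52, with limma adjusted p of 0.986, 0.0683, 0.112 and 0.699, so these 4 did not pass. Which S51A array was left out decided AMBN: it differed by 5.75 without the second lomustine array of S51A (limma adjusted p 0.00288) and by 1.84 without the first (0.207). The calls of NLRP2 and ITM2A were lost with arrays centred on their medians (adjusted p 0.0667 and 0.0753), and that of ITM2A also with no filter on dim genes (0.0718). In the SA100 arm, with 1 array for each line and no test, S51A minus PAR was 5.01 for NLRP2, 4.88 for AMBN, -5.35 for ITM2A, -2.33 for EPHA3, -2.34 for MAP2K6 and -1.17 for LPCAT2.

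The kinase lines place these levels. Over 14 arrays of the HRI, GCN2, PKR and PERK lines NLRP2 ran between 1.89 and 2.54 log2 units, AMBN between 1.80 and 2.76, ITM2A between 7.83 and 8.72, MAP2K6 between 4.30 and 5.60 and LPCAT2 between 3.55 and 4.90. The treated S51A arrays did not overlap with the 12 treated arrays of the other lines for these 5 genes, and for 1.64% of the genes tested. With the untreated arrays included, 5 S51A arrays against 19, they did not overlap for the same 5 genes and for 0.888% of genes, but that count holds arrays on which the genes were picked and is a description only. Below or above S51A the other 5 lines had no clear order for those 5 genes, since each line's arrays overlapped with those of its neighbour in the order of means.

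Against the mean of the 4 kinase lines in the treated arms, limma called 272 genes, 1.57% of those tested, of which 140 or 0.807% were higher and 132 or 0.761% lower in S51A. All 6 genes were called in the direction seen against PAR. The differences were 4.62 log2 units for NLRP2, 4.49 for AMBN, -5.12 for ITM2A, -2.66 for MAP2K6, -1.67 for LPCAT2 and -1.39 for EPHA3. For EPHA3 the mean joins unlike lines. Relative to PAR, S51A stood at -2.69 for EPHA3, the PERK line close by at -2.51, GCN2 at -1.90, PKR at -1.36 and HRI at 0.57. The adjusted p ran from 6.13e-08 for NLRP2 to 0.0356 for EPHA3, and EPHA3 alone lost its call when single arrays were left out, among them the second lomustine array of S51A (adjusted p 0.0887). This comparison and that against PAR share the S51A arrays and are not independent of each other.

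Set against PAR in the treated arms, none of the 4 kinase lines had any gene past the limma threshold, 0.00% in each case, with 925, 317, 175 and 401 genes at an unadjusted p under 0.05 for HRI, GCN2, PKR and PERK. For NLRP2 the 95% confidence intervals of these 4 differences lay between -0.68 and 0.61 log2 units, for ITM2A between -0.60 and 1.24, for MAP2K6 between -0.16 and 1.01 and for LPCAT2 between -0.56 and 1.20. Differences of the size seen in S51A lay outside those intervals. Not every single interval spanned 0. For MAP2K6 those of HRI (0.20 to 1.01) and PKR (0.09 to 1.00) lay above it, as did that of HRI for LPCAT2 (0.06 to 1.20). These were higher than PAR, where S51A was lower, and none passed after adjustment. For AMBN, whose fitted spread carries the outlying S51A array, the intervals were wider and ran between -2.17 and 1.43. The 4 comparisons share the 3 treated PAR arrays.

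**Figure D2:**
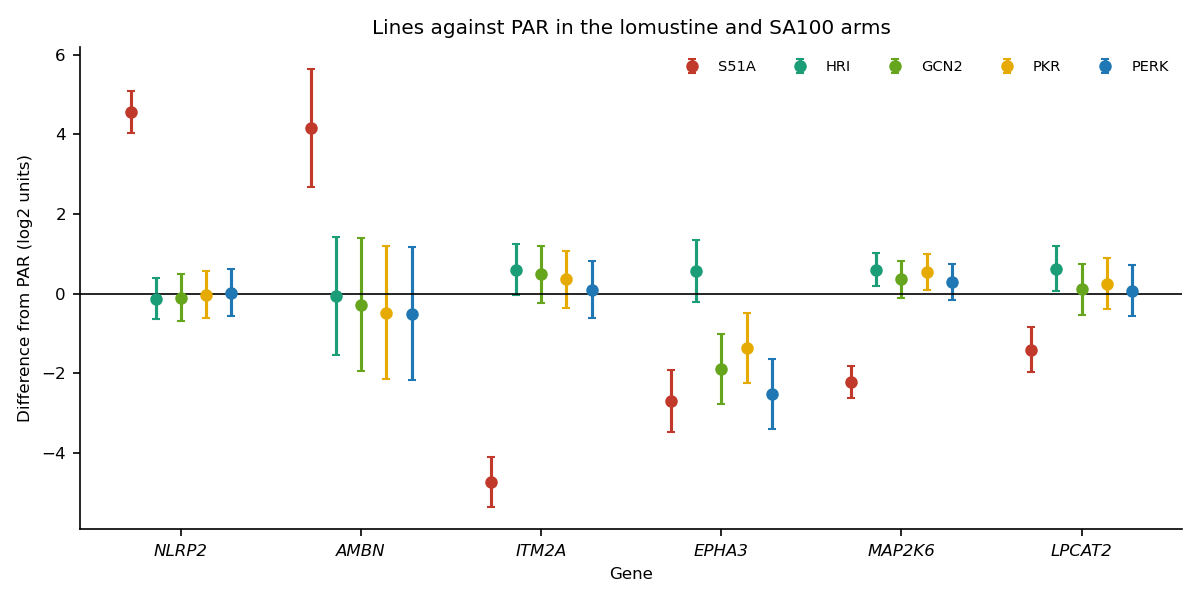
Difference of each line from PAR in log2 units over the lomustine and SA100 arrays, as fitted by limma, with bars for 95% confidence intervals. S51A lies at 4.57 for NLRP2 and at -4.73 for ITM2A. The 4 kinase lines lie between -0.12 and 0.03 for NLRP2 and between 0.11 and 0.60 for ITM2A. For EPHA3 the GCN2, PKR and PERK lines lie at -1.90, -1.36 and -2.51.

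EPHA3 was the exception among the 6, because its level differed among the kinase lines. It read 5.50 and 6.30 with lomustine, 5.58 with SA100 and 6.46 and 5.43 with no drug in HRI cells. The GCN2 line read 2.46, 4.35 and 2.63 with lomustine, SA100 and no drug, the PKR line 3.50, 4.39 and 3.51, and the PERK line 2.64, 2.96 and 2.46. From high to low the means over all arms were 5.85 for HRI, 5.35 for PAR, 3.80 for PKR, 3.15 for GCN2, 2.69 for PERK and 2.42 for S51A. HRI and PAR overlapped, PKR, GCN2, PERK and S51A overlapped each with the next, and no array fell between 4.39 and 4.99.

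Relative to PAR in the treated arms EPHA3 differed by -2.51 log2 units in the PERK line (95% confidence interval -3.39 to -1.63), by -1.90 in the GCN2 line (-2.77 to -1.02), by -1.36 in the PKR line (-2.24 to -0.48) and by 0.57 in the HRI line (-0.21 to 1.35). Leaving out 1 GCN2 array moved its difference to -1.02 (without lomustine) or -2.69 (without SA100). None passed the limma threshold over all genes, with an adjusted p of 0.319 for PERK. By size EPHA3 ranked 1st of 17339 genes in the PERK comparison, 3rd in the GCN2 comparison and 4th in the PKR comparison. EPHA3 was picked for being high in untreated PAR cells, and each comparison subtracts PAR, so the pick favours high ranks here. The treated arrays of the GCN2, PKR and PERK lines, 6 in all, lay below the 6 of HRI and PAR without overlap for EPHA3 and for 0.138% of the genes tested, a split noticed after the values were seen. The HRI line, the only kinase line whose arrays overlapped with those of PAR for EPHA3, is also the only one with repeat arrays.

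No effect of either drug on the 6 genes passed the test. The arrays of the 4 kinase lines were outside the contrast that chose the genes. There, lomustine minus no drug lay between -0.15 log2 units for ITM2A and 0.01 for AMBN. The 95% confidence intervals lay inside -0.65 and 0.61. By limma with the line as a covariate, lomustine changed 45 genes, 0.260% of those tested, and none of the 6. SA100 changed 1159 genes, 6.68% of those tested, and again none of the 6, with differences between -0.13 for ITM2A and 0.63 for EPHA3. An effect of SA100 on EPHA3 was not resolved, since its interval ran from -0.04 to 1.30 with a limma adjusted p of 0.266.

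EPHA3 read higher after SA100 by 1.72 log2 units in the GCN2 line, 0.88 in the PKR line and 0.49 in the PERK line, against -0.37 in the HRI line. With the HRI line left out, whose difference ran the other way, the difference over the other 3 lines was 1.03 with a limma adjusted p of 0.0208, in a fit that called 12.2% of all genes. With the GCN2, PKR or PERK line left out instead it was 0.28, 0.55 or 0.68, and EPHA3 did not pass (adjusted p 0.707, 0.597 and 0.484). In S51A the difference was 0.61 and in PAR -0.35, each from 1 SA100 array. Both subtract the untreated arrays on which EPHA3 was chosen as low in S51A and high in PAR. That choice favours a rise in S51A and a fall in PAR, so these values are descriptions only. Whether the drug effect on EPHA3 differed between lines was not tested.

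In PAR cells the treated means of MAP2K6 and LPCAT2 were lower than the untreated ones. For MAP2K6 lomustine minus no drug was -0.83 log2 units and SA100 minus no drug -0.67, and for LPCAT2 the differences were -0.78 and -0.90. The untreated PAR arrays had served to choose both genes for being high there, so these differences are given without a test. The matching differences in S51A cells were -0.07 and -0.10 for MAP2K6 and -0.03 and 0.21 for LPCAT2, at levels near the background line.

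**Figure D3:**
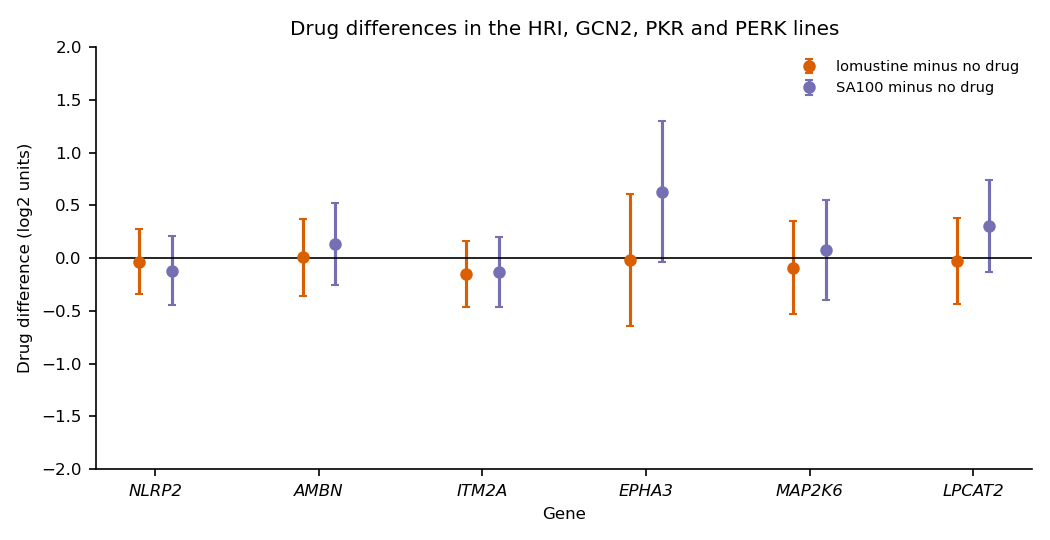
Difference between treated and untreated arrays in log2 units for the 6 genes in the HRI, GCN2, PKR and PERK lines, lomustine first and SA100 second, with 95% confidence intervals from limma. All 12 intervals include 0, and EPHA3 with SA100 has the highest estimate at 0.63.

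The genes next to the 6 on their chromosomes were read in the same comparison. For each of the 6, the nearest 2 protein-coding genes with a probe set were taken on either side, 24 neighbours in all. Of these, 11 were bright enough to be tested, and none was called higher or lower in S51A than in PAR in the treated arms, where differences ran from -0.35 to 0.42 log2 units with a median of -0.01. With 0.594% of all genes called, no call among 11 genes is near the background and is no result about the neighbours. NLRP7, an NLR gene beside NLRP2 with a role in oocytes, averaged 2.68 over all 5 S51A arrays, against 2.41 over the 5 PAR arrays. The enamel genes AMTN and ENAM flank AMBN, and both stayed under the background line in S51A and in PAR. PROS1, which encodes the anticoagulant protein S and lies beyond EPHA3, averaged 2.93 in S51A and 3.10 in PAR, and C3orf38 on the other side averaged 5.62 in S51A and 5.83 in PAR.

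**Figure D4:**
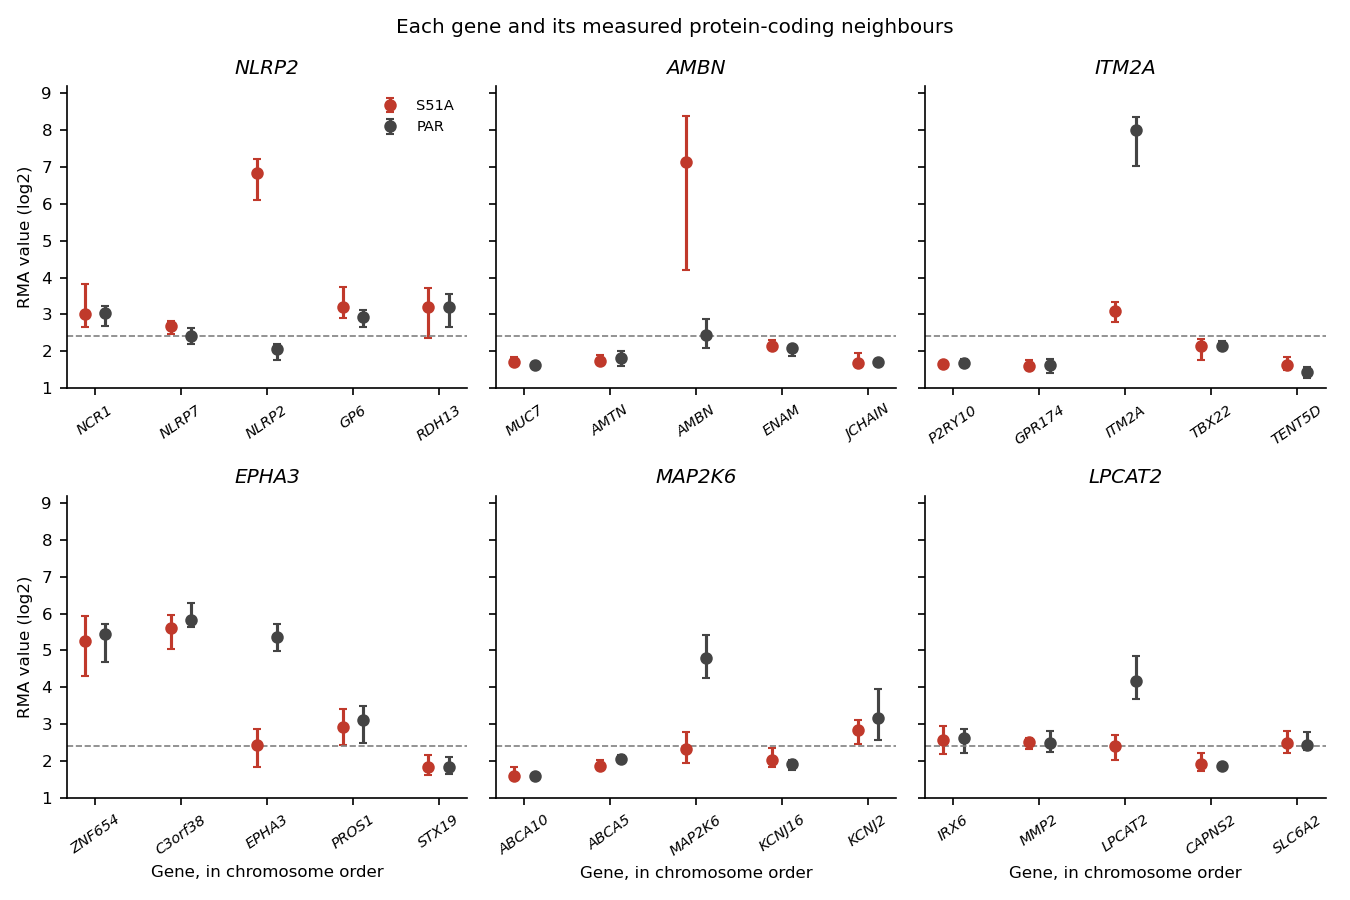
RMA values in log2 units of the 6 genes and up to 2 measured protein-coding genes on either side, in chromosome order, for S51A at the left of each pair and PAR at the right. Points are means of 5 arrays, bars run from the lowest to the highest array, and the dashed line is the background of 2.42. Each of the 6 stands apart between S51A and PAR.

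The relatives of the 6 genes were read from lists of their families and pathways, leaving the 6 themselves out. Of 9 tested NLRP and inflammasome genes, 5 enamel genes, 2 ITM2 genes, 19 Eph receptors and ephrins, 18 p38 pathway genes and 15 lysophospholipid acyltransferases, none was called in either direction between S51A and PAR in the treated arms. In that comparison 0.594% of all genes were called. No call in lists this small is near that share and is no result about the families. The medians of the lists, in the order given above, were 0.06, 0.06, 0.10, 0.04, -0.04 and -0.10 log2 units, beside -0.01 over all genes tested. DSPP and FAM83H, tooth genes of the enamel list, differed by 0.18 and -0.11 without passing. PYCARD, the adaptor that joins NLR proteins to caspase-1, differed by -0.70 without passing, and ITM2C and ITM2B, the other BRICHOS relatives, differed by 0.27 and -0.07. EPHA6 and EPHB6 differed by 0.39 and 0.53, the p38 substrate ATF2 by -0.67 and the p38-gamma kinase MAPK12 by -0.36. AGPAT2 and LCLAT1, acyltransferases of phosphatidic acid and cardiolipin metabolism, differed by -0.52 and -0.43, again without passing.

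A few relatives passed elsewhere. Against the 4 kinase lines, the receptor EPHA4 fell in S51A by 0.99 log2 units (limma adjusted p 0.00634), the 1 call among the 19 Eph genes beside 1.57% of all genes. With SA100 in the kinase lines EPHA4 rose by 0.75 and the ephrins EFNA1, EFNA3 and EFNB2 by 0.76, 0.77 and 1.52. The limma adjusted p were 0.0139, 0.0432, 0.0155 and 0.0430, those of EFNA1 and EFNB2 just under the threshold. These made 4 of 19 Eph genes beside 6.68% of all genes. In the same comparison 1 of 18 p38 genes rose, the transcription factor MEF2C by 0.92 (limma adjusted p 0.00191). Of 15 acyltransferases 1 fell, AGPAT5 by 0.43 (limma adjusted p 0.0330). Both shares are near 6.68% and are no result about those families.

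Across the 24 arrays the 6 genes followed one another, which mostly restates that S51A stood apart. Pearson's r between NLRP2 and AMBN was 0.96, between NLRP2 and ITM2A -0.98, between ITM2A and MAP2K6 0.96 and between MAP2K6 and LPCAT2 0.91, while EPHA3 reached 0.74 with LPCAT2 and stayed at or below 0.57 in size with the other 4. The points share 6 lines, so these values are descriptions. Likeness was also ranked among the tested genes outside the 6. The genes most like NLRP2 were ZNF208, ZNF257 and ZNF729, at 0.993, 0.988 and 0.988. All 3 are zinc finger genes. ZNF729 ran between 6.64 and 7.78 log2 units in S51A and between 1.49 and 1.92 in the other lines, and ZNF257 between 6.50 and 7.60 in S51A and between 1.80 and 3.09 in the other lines.

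AMBN was most like ACTL8, LONRF3 and ZNF43, at r of 0.984, 0.980 and 0.978. ACTL8 ran between 5.25 and 7.81 log2 units in S51A and between 2.46 and 3.16 in the other lines. Outside the 6, ITM2A and MAP2K6 shared the same most similar gene, DACH1, a nuclear corepressor, at 0.944 and 0.912. DACH1 ran between 3.98 and 5.52 in S51A and between 6.67 and 7.73 elsewhere. After it came CACNA2D1 and ZC4H2 for ITM2A at 0.928 and 0.916, and LRRC1 and CHRDL1 for MAP2K6 at 0.910 and 0.890. LPCAT2 was, outside the 6, most like CDHR1, PPFIA2 and FAT4, at 0.944, 0.903 and 0.903. EPHA3 had no such close companion, with SYT11, THRB and PODXL at 0.812, 0.808 and 0.753.

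On the second lomustine array of S51A all 6 genes stayed on the S51A side, and without it and the first lomustine array of PAR all 6 stayed called against PAR in the treated arms. The blood marker PTPRC lay under the background line on all arrays, between 1.56 and 2.08, and GATA1, a factor of the red cell lineage, had a median of 3.84. Means over 8 blood and 6 fibroblast markers overlapped between S51A and the other lines. Among the fibroblast markers VIM ran between 3.64 and 5.13 in S51A and between 4.93 and 5.53 elsewhere. Against PAR in the treated arms VIM differed by -0.70 and TAGLN by 0.24, both without passing. The mean of 6 epithelial markers ran between 3.17 and 3.55 in S51A and between 2.81 and 3.19 elsewhere. Among them EPCAM read 6.35 and 3.92 with lomustine, 4.02 with SA100 and 4.16 and 6.66 with no drug in S51A, against 2.57 to 3.58 in the other lines. EPCAM rose by 1.77 in treated S51A against the kinase lines (limma adjusted p 0.0357). It was the 1 call among the 6 epithelial markers, beside 1.57% of all genes tested. Against PAR it differed by 1.78 without passing (limma adjusted p 0.207). The other 5 epithelial markers overlapped between S51A and the other lines. KRT8 went the way of EPCAM, with a median of 3.82 and a highest value of 4.76 in S51A, against 3.65 and 3.87 elsewhere. Against PAR in the treated arms KRT8 differed by 0.56 without passing. KRT18 had a median of 3.40 in S51A and 3.52 elsewhere, and CDH1 2.34 in both. The part of EPCAM or the other markers in the levels of the 6 genes was not tested.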

How the data were processed

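The submitters deposited 1 table of RMA log2 values for 53617 probe sets on 24 arrays, made with affy per the submitters' processing notes; versions and genome build are not given in the sources used here. Arrays carry no read depth, so the number of arrays limits precision. Array medians lay between 2.34 and 2.58. Of the probe sets, 23558 had 1 gene symbol, 2155 several and 27904 none in the platform annotation, and only the first kind was used. The probe set with the highest mean stood for each of 22109 genes, and 17339 genes above the median of all values on at least 2 arrays were tested.

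Groups came from the array titles. Lines were compared on the 15 treated arrays with limma 3.58.1 in R 4.3.3 (line plus arm), S51A and PAR also on the lomustine arrays alone, and drugs on the 14 arrays of the kinase lines (line plus arm). Benjamini-Hochberg adjustment ran over all genes tested, with a threshold of 0.05. The fits were tested on simulated data. Figures used Python 3.11.15. Alternatives changed the filter, probe set choice, normalization, variance prior, arrays fitted and replicate block. The labels do not say that the letters A and B of repeat arrays pair them. Deviations of same-lettered arrays correlated at 0.33 to 0.36 among untreated S51A, untreated PAR and lomustine PAR, at -0.70 to -0.27 between each of these and lomustine S51A, and at -0.56 between untreated and lomustine HRI, so crossed letters were tried as well. No 2 arrays were duplicates, sharing at most 11 identical values.

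The 6 genes and the related lists were chosen with earlier results of these data known. The text names the 6 genes, the targeted genes and the 3 genes outside the 6 most like each of them over the arrays. From each family or pathway list it names every gene that passed or, failing that, the 2 lowest in p. It also names some of the largest untreated differences, of the nearest measured neighbours and of the cell type markers, and no rule set which. EPCAM and the genes of a list called in other comparisons were named after their values were seen.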

Additional observations from a re-analysis of the deposited data

Results flagged for a closer look

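Within each line of 5 arrays (S51A, HRI and PAR) the highest and lowest array were checked for standing far from the others, for 18 combinations of line and gene, and 3 did so; chance alone gives about 1 in 20. AMBN read 4.21 log2 units on the second lomustine array of S51A, against 7.43 to 8.38 on the other 4 S51A arrays. That is the array with the highest share of probe sets far from their median, 8.37%, and NLRP2 was also lowest there among S51A arrays, at 6.11. ITM2A read 7.02 on the first lomustine array of PAR, against 8.05 to 8.37 on the other 4, and MAP2K6 and LPCAT2 were also lowest there among PAR arrays, at 4.25 and 3.69. NLRP2 read 1.77 on the second untreated array of PAR, against 2.07 to 2.19 on the others, all under the background line.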

How the results depend on the processing

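No called difference of the 6 genes turned its sign under any alternative run. Counts of genes called moved more. S51A against PAR in the treated arms called 103 genes, 54 with all 24 arrays in 18 groups and 61 to 176 with 1 array left out, 67 without PAR lomustine A, 61 without the S51A SA100 array and 176 without S51A lomustine B. The 6 genes all stayed called under the filter, normalization and prior alternatives, and 4 to 6 with 1 array left out. Averaging all probe sets of a gene left the 6 differences unchanged, so that alternative could not test them. The 24-array fit kept 4 and lost AMBN (limma adjusted p 0.0673) and LPCAT2 (0.114).

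The lomustine arm alone called 13 genes, 2 of them among the 6. It called 5 (1 of the 6) with no filter, 21 after a second quantile normalization, 1 (0 of the 6) with arrays centred on their medians, 21 with a trended prior, 29 (4 of the 6) with all 24 arrays, 81 (5 of the 6) without S51A lomustine B and PAR lomustine A, 7 with the replicate block, and 6 to 49 with 1 array left out. The letters of S51A and PAR lomustine arrays correlated at -0.70; the replicate block with crossed letters called 15 genes. The replicate block kept all 6 calls in the treated arms.

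S51A against the kinase lines called 272 genes, 462 after quantile normalization, 134 with 24 arrays and 145 to 313 with 1 array left out, and EPHA3 lost its call in several of these (adjusted p up to 0.188). The kinase lines against PAR had 0 calls, except 0 to 2 for HRI with 1 array left out and 1 without both outlying lomustine arrays, 1 for GCN2 and for PKR with 24 arrays, 0 to 1 for PKR with 1 array left out, and 1 for PERK after quantile normalization. Lomustine in the kinase lines called 45 genes, 10 with 24 arrays, 75, 23, 28 and 25 without the HRI, GCN2, PKR and PERK lines, 178 with all 6 lines and 70 with the replicate block of crossed HRI letters. SA100 called 1159, 101 with 24 arrays, 2110 (with EPHA3 as 1 of the 6), 445, 271 and 226 without those lines in turn, and 530 with all 6 lines. The cause of these moves was not tested beyond the change in arrays fitted. With 1 array in each arm of the GCN2, PKR and PERK lines, the 95% confidence interval of EPHA3 against PAR reached 0.88 log2 units to either side.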
